A study of Homo sapiens with 8 samples.

Results

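The genes of Polycomb repressive complex 2 (PRC2) were examined in mRNA-seq libraries of Panc-1, an established human line of pancreatic ductal carcinoma cells. The 10 genes were taken by name as core or accessory subunits of the complex (EZH1, EZH2, EED, SUZ12, RBBP7, MTF2, PHF1, PHF19, JARID2 and AEBP2), and all 10 were among the 13307 genes of the table. The choice was by name and not by a threshold on a measured value, but it was made with earlier results of these data known. Each reached 10 normalized counts in 2 or more libraries, as did every gene of the table. Cells were transfected with non-targeting siRNA (siControl) or with siRNA against PHF13 (siPHF13), and each was sequenced untreated or after 48 h with 10 ng/ml TGFβ (siControl + TGFβ and siPHF13 + TGFβ), which gave 4 groups with 2 libraries each. All libraries therefore come from a single transfected cell line, and depletion was by siRNA, so that PHF13 transcript remained.

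PRC2 is the enzyme complex that places methyl groups on histone H3 at lysine K27. EZH1 and EZH2 are alternative catalytic subunits, and they work only when bound to EED, which reads the trimethylated mark, and SUZ12, the scaffold on which the complex is assembled. RBBP7, like its relative RBBP4, is a histone-binding WD40 protein. The accessory subunits define alternative forms of the complex: PHF1, MTF2 and PHF19 are the Polycomb-like proteins of PRC2.1, and JARID2 and AEBP2 are the partners of PRC2.2. H3K27me3, together with H3K4me3, marks poised genes, and PHF13 is a PHD finger protein that binds H3K4me3. The comparisons therefore ask how the transcripts for the writers of the repressive mark stood when PHF13 was depleted and when cells were exposed to TGFβ, a cytokine that induces epithelial to mesenchymal transition.

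Between 39196214 and 46700806 reads per library fell on the genes of the table. PHF13 itself had 1804 and 1662 normalized counts in siControl, 1586 and 1709.5 in siControl + TGFβ, 524 and 558 in siPHF13, and 513 and 529 in siPHF13 + TGFβ. Its level after depletion was 31.2% of control without TGFβ and 31.6% with it. The ductal line was represented by 6 of 6 markers, with KRT8 between 70722 and 120045 normalized counts and VIM between 160328 and 202482. Of 8 acinar and islet markers 0 were in the table, and of 8 blood and endothelial markers 1 was, CD68, a lysosomal protein also made outside the blood lineage, with 6137 to 13047. Some of these markers moved with the groups. By the tests described next, CD68 was called higher on depletion without and with TGFβ, at log2 fold changes of 0.77 ± 0.11 and 0.79 ± 0.11 (SE, adjusted p 6.21e-05 and 4.34e-05). The epithelial adhesion gene EPCAM was also called higher, at 0.78 ± 0.18 and 0.94 ± 0.18 (adjusted p 0.00292 and 0.000669). Under TGFβ in siControl cells the keratins KRT8 (-0.68 ± 0.08, adjusted p = 6.07e-05) and KRT19 (-0.84 ± 0.06, adjusted p = 9.92e-07) were called lower. KRT19 was called higher on depletion with TGFβ (0.76 ± 0.06, adjusted p = 4.75e-07), and 0.54 after correction for GC content and length was below the fold threshold defined next. Of the 6 ductal markers, 1 was called higher on depletion without TGFβ and 2 with it, beside 7.95% and 8.81% of all genes. Under TGFβ in siControl cells 2 were called lower, beside 1.52% of all genes. The part of these markers in the results for the subunits was not tested.

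A subunit is said to have changed where the adjusted p of limma (Benjamini-Hochberg over all 13307 genes) was under 0.05, and is called where the absolute log2 fold change was also over 0.58. Fold changes are on the scale of log2(normalized count + 1). The labels do not say whether the libraries of a group came from separate cultures, so p-values measure the spread between these libraries, which may be technical. In bulk RNA a lower level cannot be told apart from fewer cells that make the transcript.

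Under PHF13 depletion the subunits moved in opposite directions. EZH1 and SUZ12 fell with and without TGFβ, PHF19 rose with and without TGFβ, and the other 7 had log2 fold changes between -0.27 and 0.22 in the depletion comparisons. In control cells TGFβ lowered PHF19, RBBP7, EZH2 and SUZ12 and raised JARID2, each by less than the fold threshold. Of these changes only that of PHF19 held when any single library was left out. The plot of normalized counts by library shows the values of all 10 genes.

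**Figure D1:**
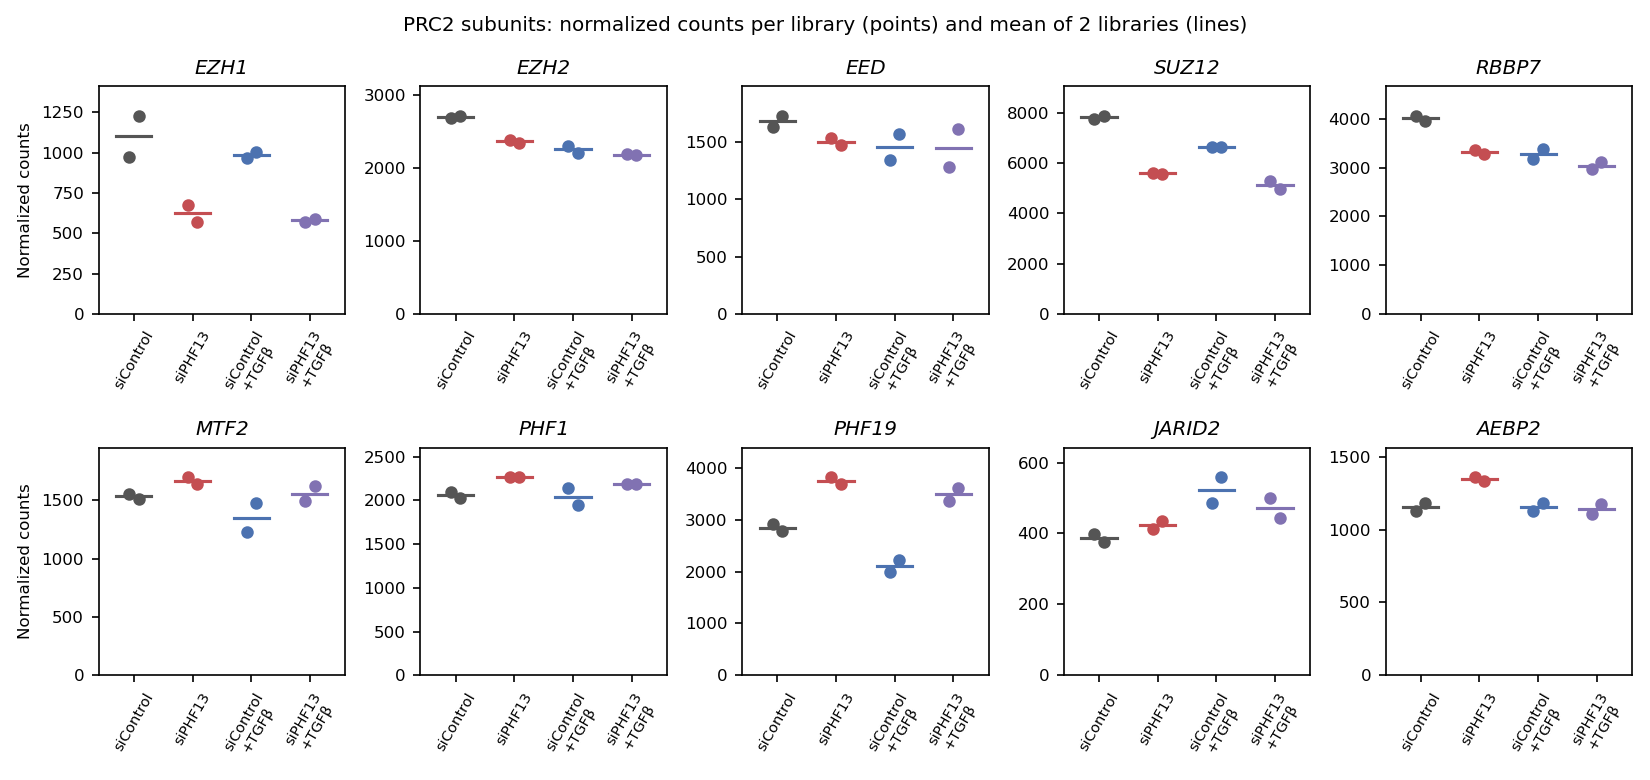
Normalized counts of the 10 PRC2 subunits (y axis, from 0, a separate scale for each gene) in the 4 groups (x axis). Points are single libraries and lines are the mean of 2 libraries. EZH1 and SUZ12 are lower in both siPHF13 groups than in the matching siControl groups, and PHF19 is lowest in siControl + TGFβ, with 1997 and 2214 normalized counts.

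EZH1, the catalytic subunit typical of cells that divide little, lies on chromosome 17 (GRCh37 chr17:40852293-40897067, minus strand, ENSG00000108799). It had 974 and 1229 normalized counts in siControl and 677 and 572 in siPHF13. With TGFβ it had 965 and 1003 in siControl and 570 and 591 in siPHF13. All 4 depleted libraries lay below all 4 control libraries, and the siControl libraries were the most widely spaced pair. EZH1 was called lower in both comparisons, with a log2 fold change of -0.81 ± 0.12 (SE, adjusted p = 9.92e-05) without TGFβ and -0.76 ± 0.12 (adjusted p = 0.000153) with it. When each library was left out in turn, the value without TGFβ ranged from -0.98 to -0.65 and stayed past both thresholds.

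SUZ12 (chr17:30264026-30328057, plus strand, ENSG00000178691) had the highest normalized counts of the 10 genes. It had 7771 and 7887 normalized counts in siControl against 5601 and 5577 in siPHF13. With TGFβ it had 6631 and 6646 in siControl against 5270 and 4971 in siPHF13. SUZ12 fell by 0.49 on the log2 scale (SE 0.06, adjusted p = 1.61e-05) without TGFβ and by 0.38 (SE 0.06, adjusted p = 0.000134) with it. Neither value reached the fold threshold of 0.58, and after correction for GC content and length they were -0.38 and -0.25.

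PHF19 (chr9:123617929-123657174, minus strand, ENSG00000119403) is the Polycomb-like protein known for binding H3K36 methylation through its Tudor domain. It had 2916.5 and 2778 normalized counts in siControl and 3819.5 and 3683 in siPHF13. With TGFβ it had 1997 and 2214 in siControl and 3369 and 3621 in siPHF13. From the lowest mean to the highest the groups were siControl + TGFβ, siControl, siPHF13 + TGFβ and siPHF13. PHF19 rose on depletion by 0.40 ± 0.07 (log2, SE, adjusted p = 0.000578) without TGFβ, and in the presence of TGFβ it was called higher at 0.73 ± 0.07 (adjusted p = 2.7e-06).

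The promoters of these 3 genes are shown because their transcripts changed in both depletion comparisons. That of JARID2 is shown as 1 whose transcript changed in neither. EED, MTF2 and PHF1 also changed in neither and are not shown. Capitals mark a match to 1 of the 4 octamers TTTCCCGC, TTTCGCGC, TTTGCCGC and TTTGGCGC, searched on both strands, which are forms of the E2F binding motif. E2F factors are the activators and repressors of genes of the G1 to S phase transition. Each stretch runs 5′ to 3′ on the strand of its gene, in GRCh37 coordinates, and was found by matching the RefSeq promoter window (assembly GRCh38.p14) exactly in the GRCh37 genome.
EZH1, upstream of the gene, chr17:40897136-40897203: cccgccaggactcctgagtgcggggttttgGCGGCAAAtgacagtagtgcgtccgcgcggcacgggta
SUZ12, upstream of the gene, chr17:30263807-30263874: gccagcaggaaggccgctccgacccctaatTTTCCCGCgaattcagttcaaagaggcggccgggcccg
PHF19, upstream of an internal start site and intronic in longer transcripts, chr9:123639581-123639648: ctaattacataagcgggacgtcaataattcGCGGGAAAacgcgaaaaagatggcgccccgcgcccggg
JARID2, upstream of the gene, no match, chr6:15246200-15246299: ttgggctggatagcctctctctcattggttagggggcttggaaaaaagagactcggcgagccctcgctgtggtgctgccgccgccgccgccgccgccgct

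Relative to the start site, the match began at position -115 in EZH1, -189 in SUZ12 and -152 in PHF19. Windows of 300 bases (250 before and 50 after each RefSeq start site) were searched in the same way for all 10 genes, which have 14 windows. Of these, 6 windows (42.9%) held a match, those named and single windows of EZH2, MTF2 and AEBP2. The other window of PHF19 (chr9:123631140-123631439) held none and is not shown. Over the 14695 windows of genes in the table the share was 4.68%, and over all 35116 windows it was 3.31%. A match is a description of the letters and was not tested as a binding site. Of the genes with a match, PHF19 and AEBP2 rose and EZH1, SUZ12 and EZH2 fell on depletion without TGFβ, and MTF2 did not pass. RBBP7, which also fell without TGFβ, held no match. Among the subunits that changed in neither depletion comparison, MTF2 held a match and EED, PHF1 and JARID2 held none. The stretches shown are therefore no comparison of changed with unchanged subunits.

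The remaining core subunits moved less on depletion. EZH2, the catalytic subunit of proliferating cells (chr7:148504349-148581413, minus strand), had 2694 and 2721 normalized counts in siControl and 2389 and 2349 in siPHF13, and it fell by 0.19 (log2, SE 0.07, adjusted p = 0.0296). With TGFβ it had 2305 and 2214 in siControl and 2191 and 2178 in siPHF13, a log2 difference of -0.05 with a 95% confidence interval of -0.19 to 0.10. The fall without TGFβ did not pass the adjusted p when any 1 of the 4 libraries compared was left out (adjusted p 0.122 and 0.152 without siControl replicates 1 and 2, 0.0795 and 0.117 without siPHF13 replicates 1 and 2), nor after correction for GC content and length (-0.09, adjusted p = 0.289).

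RBBP7 (chrX:16857406-16888485, minus strand) had 4063 and 3962 normalized counts in siControl and 3357 and 3285 in siPHF13, and it fell by 0.27 (log2, SE 0.07, adjusted p = 0.00375). With TGFβ the values were 3173 and 3380 in siControl against 2967 and 3110 in siPHF13, and the log2 difference of -0.11 ± 0.07 did not pass (adjusted p = 0.188). After correction for GC content and length these were -0.18 (adjusted p = 0.0233) and -0.01 (0.861). Of its summed exons 2.44% are shared with TXLNG on the opposite strand, and the sources used here do not say whether the counting used strand. EED (chr11:85912254-85989855, plus strand) had 1631 and 1732 normalized counts in siControl and 1537 and 1475 in siPHF13. With TGFβ EED had 1349 and 1569 in siControl and 1280 and 1614 in siPHF13, groups that overlap. Its log2 differences of -0.16 and -0.02 had 95% confidence intervals of -0.39 to 0.07 and -0.25 to 0.22.

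Among the accessory subunits other than PHF19, AEBP2, a zinc finger protein of PRC2.2 (chr12:19556979-19873735, plus strand), had 1126 and 1180 normalized counts in siControl and 1359 and 1332 in siPHF13. It rose by 0.22 (log2, SE 0.08, adjusted p = 0.0401). This rise did not pass without siControl replicate 1 or 2 (adjusted p 0.219 and 0.0968) or without siPHF13 replicate 1 or 2 (0.144 and 0.0973), and after correction for GC content and length it was 0.35 (adjusted p = 0.00184). In the presence of TGFβ AEBP2 had 1124 and 1184 in siControl against 1110 and 1173 in siPHF13, a log2 difference of -0.02 with a 95% confidence interval of -0.19 to 0.16.

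PHF1 (chr6:33378176-33384230, plus strand) and MTF2 (chr1:93544792-93604636, plus strand) are the Polycomb-like proteins related to PHF19. PHF1 had 2094 and 2030 normalized counts in siControl, 2265 in both libraries of siPHF13, 2143 and 1942 in siControl + TGFβ, and 2192.5 and 2182 in siPHF13 + TGFβ. Its log2 differences on depletion of 0.14 and 0.10 did not pass (adjusted p 0.147 and 0.275). MTF2 had 1556 and 1510 in siControl, 1696 and 1639.5 in siPHF13, 1224 and 1476 in siControl + TGFβ, and 1494 and 1618 in siPHF13 + TGFβ. The log2 differences of MTF2 on depletion, 0.12 and 0.21, had adjusted p of 0.311 and 0.0768. After correction for GC content and length MTF2 passed in both, at 0.23 (adjusted p = 0.0398) and 0.32 (0.00619), and in the presence of TGFβ it also passed without siControl + TGFβ replicate 2 (0.35, adjusted p = 0.0146) or without siPHF13 + TGFβ replicate 1 (0.27, 0.0463). It was 0.07 without siControl + TGFβ replicate 1 (adjusted p = 0.573), and 2 of the 8 fits that left out a library passed. JARID2, the DNA-binding partner that guides PRC2.2 to chromatin (chr6:15246300-15522273, plus strand), had log2 differences of 0.13 and -0.15 on depletion (adjusted p 0.418 and 0.347).

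Over the 10 subunits, 0 were called higher and 1 lower on depletion without TGFβ, beside 7.95% of all genes called higher and 10.4% called lower. By adjusted p alone 2 rose and 4 fell, beside 23.1% and 24.3% of all genes. With TGFβ, 1 subunit was called higher and 1 lower, beside 8.81% and 11.7% of all genes, and by adjusted p alone 1 rose and 2 fell, beside 24.5% and 25.9%. The median log2 fold change of the subunits was -0.02 and -0.03 in these comparisons. Over all genes both medians lay within 0.01 of 0. Each of these counts differed by less than 2 subunits from the count that the share of all genes gives for a list of 10.

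**Figure D2:**
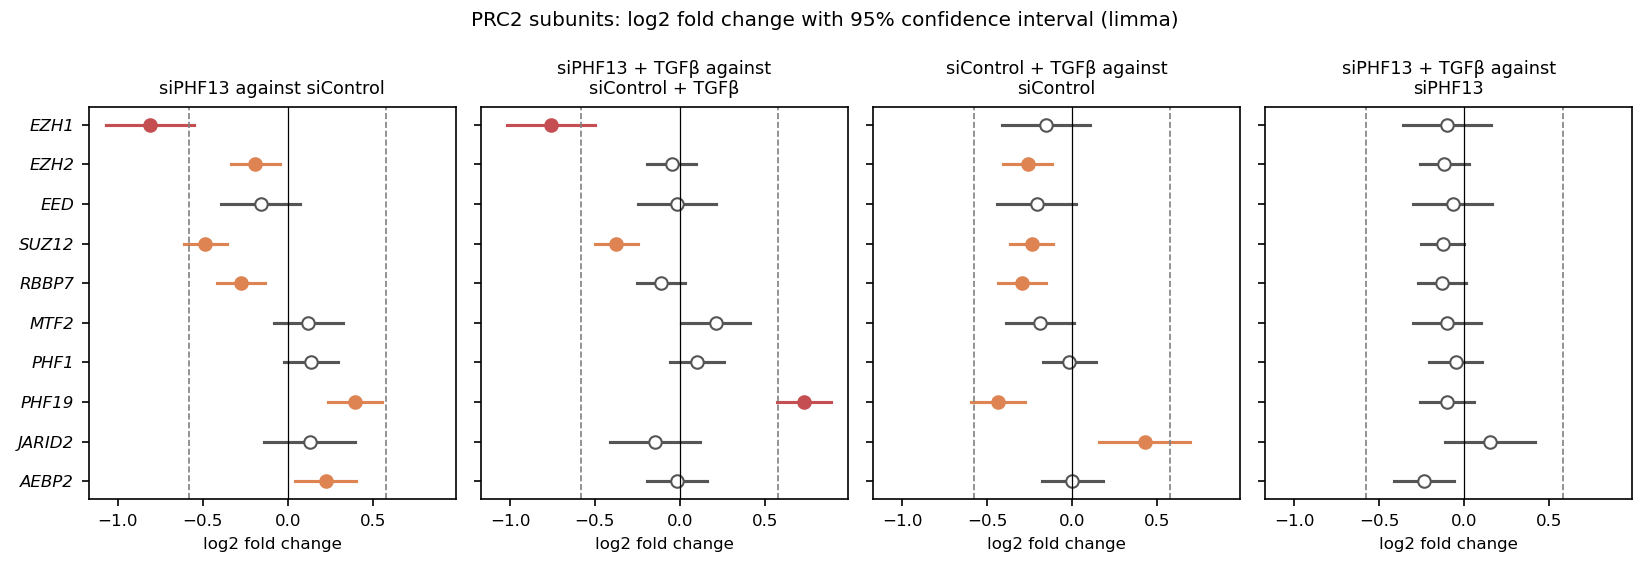
Log2 fold change of each PRC2 subunit (x axis) in the 4 comparisons of conditions, with points for the limma estimate and bars for the 95% confidence interval. Red marks subunits past both thresholds, orange those past the adjusted p alone and open points those past neither, and dashed lines stand at the fold threshold of 0.58. EZH1 lies beyond the lower line in both depletion comparisons and PHF19 beyond the upper line in the presence of TGFβ.

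In siControl cells exposed to TGFβ, 0 of the 10 subunits were called by limma, edgeR or DESeq2 (5 had an unadjusted limma p under 0.05), beside 3.27% of all genes called higher and 1.52% called lower. By adjusted p alone 4 fell and 1 rose, beside 6.67% and 9.21% of all genes. The median log2 fold change of the subunits was -0.20, with 8 of 10 values below 0, against -0.01 over all genes. PHF19 fell by 0.44 (log2, SE 0.07, adjusted p = 0.00108), and this held without any single library. RBBP7 fell by 0.29 (SE 0.07, adjusted p = 0.0076), EZH2 by 0.26 (SE 0.07, adjusted p = 0.017) and SUZ12 by 0.24 (SE 0.06, adjusted p = 0.0137).

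JARID2 had 398 and 376 normalized counts in siControl and 486 and 559 in siControl + TGFβ, and it rose by 0.43 (log2, SE 0.12, adjusted p = 0.0308). It was the only one of the 10 subunits that rose under TGFβ in siControl cells. In siPHF13 cells it had 412 and 435 without and 499 and 444 with TGFβ, a log2 difference of 0.15 ± 0.12 (adjusted p = 0.676). Leaving out siControl replicate 1 or 2 gave JARID2 an adjusted p of 0.113 or 0.204 for the rise in siControl cells, and leaving out siControl + TGFβ replicate 2 gave 0.192. EZH2 and SUZ12 did not pass when any 1 of the 4 libraries compared was left out (adjusted p 0.0512 to 0.148 for EZH2 and 0.059 to 0.148 for SUZ12, each highest without siControl replicate 2). RBBP7 did not pass without siControl replicate 1 or 2 (0.105 and 0.0642) or without siControl + TGFβ replicate 1 (0.0828). For the other 5 subunits the log2 differences lay between -0.21 and 0.00, and none passed.

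Markers of dividing cells moved together with these subunits under TGFβ. All 10 of the 10 proliferation genes listed (MKI67, TOP2A, PCNA, MCM2, CCNA2, CCNB1, CDK1, CCNE1, CCNE2 and BIRC5) had log2 fold changes below 0 in siControl cells, with a median of -0.45. Of these, 7 passed the adjusted p and 2 were called, beside 6.67% and 1.52% of all genes, the mitotic cyclin CCNB1 (-0.64 ± 0.09) and the topoisomerase TOP2A (-0.59 ± 0.07). Without siControl + TGFβ replicate 1 they stood at -0.54 and -0.50, and TOP2A without siControl replicate 2 at -0.577, short of the fold threshold. The part of the proliferation genes in the fall of EZH2, SUZ12, RBBP7 and PHF19 was not tested.

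In siPHF13 cells exposed to TGFβ against untreated siPHF13 cells, 0 of the 10 subunits passed the adjusted p of limma, beside 3.07% of all genes past the adjusted p and 1.35% past both thresholds. At an unadjusted p under 0.05 there were 2, AEBP2 at a log2 fold change of -0.24 (adjusted p = 0.183) and SUZ12 at -0.13 (adjusted p = 0.358). PHF19 had 3819.5 and 3683 normalized counts without and 3369 and 3621 with TGFβ, a log2 difference of -0.10 with a 95% confidence interval of -0.26 to 0.06.

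The interaction, the TGFβ response of siPHF13 cells minus that of siControl cells, tests whether the responses differed. By limma 0 of the 10 subunits passed the adjusted p, beside 0.413% of all genes past it and 0.308% past both thresholds, and 1 subunit had an unadjusted p under 0.05. That subunit was PHF19, with a difference of 0.33 ± 0.10 (log2, SE) between its response of -0.44 in siControl cells and -0.10 in siPHF13 cells (adjusted p = 0.249, 95% confidence interval 0.11 to 0.56). The other differences ranged from -0.28 for JARID2 (adjusted p = 0.695) to 0.16 for RBBP7 (0.641). A response that passed in siControl cells and not in siPHF13 cells is therefore not shown to differ between them.

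The make-up of the complex was described from normalized counts per kilobase, since levels of different genes can be compared only per length. Length was taken either as the summed exons of the gene or as its MANE transcript, the single reference transcript of the gene, and the choice matters for genes with long alternative exons. By summed exons EZH1 made up 38.4% ± 3.72 (SD, n = 2) of the length-scaled counts of EZH1 and EZH2 in siControl and 28.9% ± 2.20 in siPHF13. With TGFβ the share was 40.2% ± 1.34 in siControl and 29.1% ± 0.616 in siPHF13. By MANE transcript the shares were 18.9%, 13.1%, 20.0% and 13.2% in the same order. On either length all 4 depleted libraries lay below all 4 control libraries, so that the transcripts of the catalytic subunits held relatively more EZH2 after depletion while EZH2 itself did not rise.

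Among the Polycomb-like proteins PHF19 made up 34.1% ± 0.284 (SD, n = 2) of the length-scaled counts of PHF1, MTF2 and PHF19 in siControl by summed exons. The share was 38.4% ± 0.432 in siPHF13, 28.6% ± 1.74 in siControl + TGFβ and 37.8% ± 0.854 in siPHF13 + TGFβ. The siControl + TGFβ libraries were the lowest of all on either length. JARID2 made up 26.7% ± 1.46 of the length-scaled counts of JARID2 and AEBP2 in siControl, 25.4% ± 1.01 in siPHF13, 32.9% ± 1.36 in siControl + TGFβ and 30.9% ± 2.60 in siPHF13 + TGFβ. Both TGFβ groups therefore stood above both untreated groups.

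**Figure D3:**
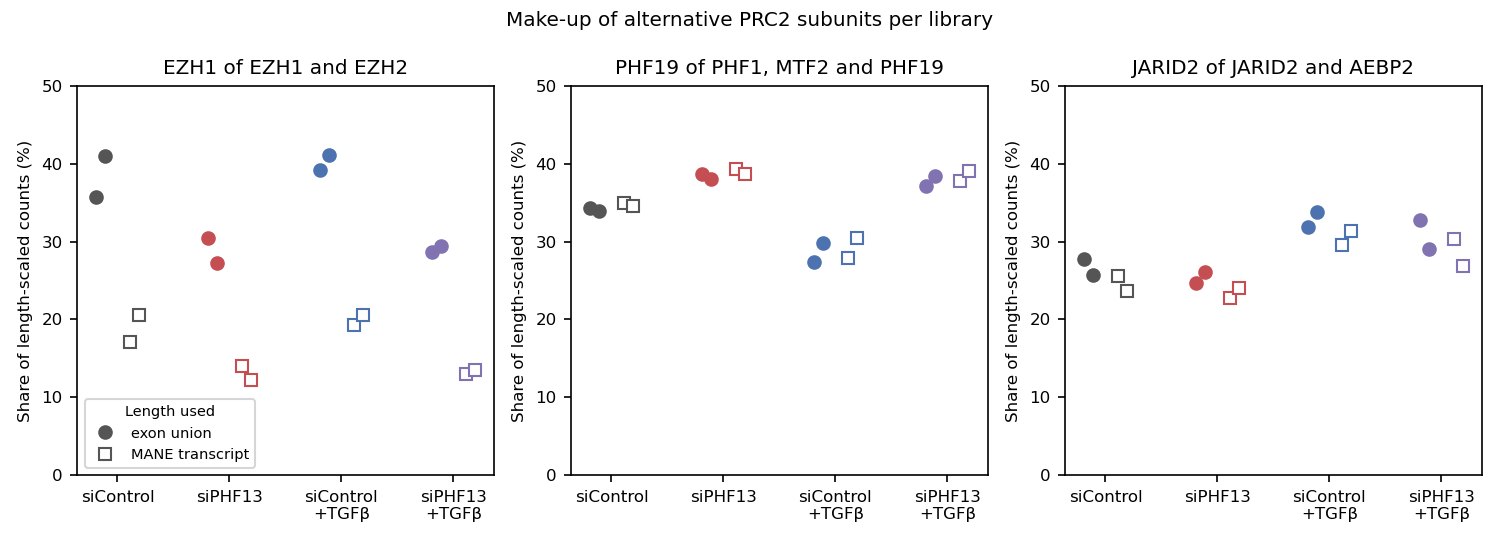
Share of length-scaled normalized counts (y axis, %) taken by EZH1 among the catalytic subunits, PHF19 among the Polycomb-like proteins and JARID2 among the PRC2.2 partners, per library in the 4 groups. Filled circles use the summed exons and open squares the MANE transcript. The EZH1 share is lower in both siPHF13 groups on either length, with means of 28.9% and 29.1% by summed exons.

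Ranked by normalized counts per kilobase of summed exons in siControl, SUZ12 came first (1195), followed by PHF1 (573), RBBP7 (547), PHF19 (432), MTF2 (260), EZH2 (251), EED (240), AEBP2 (170), EZH1 (158) and JARID2 (62.0). The libraries of AEBP2 and EZH1 overlapped, and those of the other neighbours did not. After depletion without TGFβ, PHF19 (569) ranked above RBBP7 (452), and EZH1 (89.4) lay next to JARID2 (67.8) at the bottom. By MANE transcript the siPHF13 group kept RBBP7 (1456) above SUZ12 (1243), PHF1 (1001) and PHF19 (904), so that this exchange of rank depends on the length used. By MANE transcript the order in siControl differed: RBBP7 (1759) and SUZ12 (1742) overlapped at the top, and EZH2 (1020) came before PHF1 (911), EED (805) and PHF19 (686). JARID2 was lowest in all 4 groups on both lengths.

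The genes whose levels followed those of the 2 called subunits most closely over the 8 libraries were taken from the 11200 genes whose mean was 100 normalized counts or more. For EZH1 they were GRAMD1C (Pearson r 0.987), PDCD11 (0.986) and NADK (0.985), and for PHF19 LY6K (0.995), THEM6 (0.994) and WDR54 (0.994). These correlations are descriptions over 4 groups of 2 libraries, in which any gene with a large depletion effect in the same direction would be high. LY6K, a surface antigen of the LY6 family, had means of 209 normalized counts in siControl, 493 in siPHF13, 99.3 in siControl + TGFβ and 392 in siPHF13 + TGFβ.

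E2F genes were examined beside PHF19. In the list of 10 E2F and RB family genes, E2F1 had 1426 and 1434 normalized counts in siControl, 1804 and 1699 in siPHF13, 981 and 984 in siControl + TGFβ, and 1544 and 1784 in siPHF13 + TGFβ. The lowest group was again siControl + TGFβ. E2F1, an activator of S phase entry, was called higher on depletion in the presence of TGFβ, at a log2 fold change of 0.76 ± 0.09 (adjusted p = 8.72e-06). E2F8, a repressor of the family, was called lower under TGFβ in siControl cells at -0.70 ± 0.11 (adjusted p = 0.000612) and higher on depletion with TGFβ at 0.69 ± 0.11 (adjusted p = 0.000152). E2F2 was called lower under TGFβ at -0.90 ± 0.13 (adjusted p = 0.000308), and on depletion with TGFβ it rose by 0.45 ± 0.13 (adjusted p = 0.011). Of the 10 proliferation genes, 0 were called on depletion without TGFβ and 1 with it, beside 18.4% and 20.5% of all genes. The latter was the S phase cyclin CCNE1, with means of 846 in siControl + TGFβ and 1373 in siPHF13 + TGFβ (0.70 ± 0.09, adjusted p = 1.95e-05). By adjusted p alone 1 proliferation gene rose and 3 fell without TGFβ, beside 23.1% and 24.3% of all genes. With TGFβ 4 rose and 0 fell, beside 24.5% and 25.9%. The counts over the E2F and RB list were 0 called without TGFβ, 2 of 10 called lower under TGFβ (1.52% of all genes) and 2 of 10 called higher on depletion with TGFβ (8.81% of all genes). KRT19 had means of 33372 normalized counts in siControl, 39777 in siPHF13, 18674 in siControl + TGFβ and 31570 in siPHF13 + TGFβ, also lowest in siControl + TGFβ, and its part in the values of PHF19 was not tested. The medians of the E2F and RB list were -0.08 on depletion without TGFβ, -0.04 under TGFβ in siControl cells and 0.08 on depletion with TGFβ. By adjusted p alone 3 genes of this list rose on depletion with TGFβ, E2F2 among them, and 3 fell, beside 24.5% and 25.9% of all genes. Without TGFβ 1 rose and 3 fell, beside 23.1% and 24.3%. Under TGFβ in siControl cells 1 rose and 4 fell, beside 9.21% and 6.67%. Of the 10 log2 fold changes there 4 lay above 0, the highest at 0.51.

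**Figure D4:**
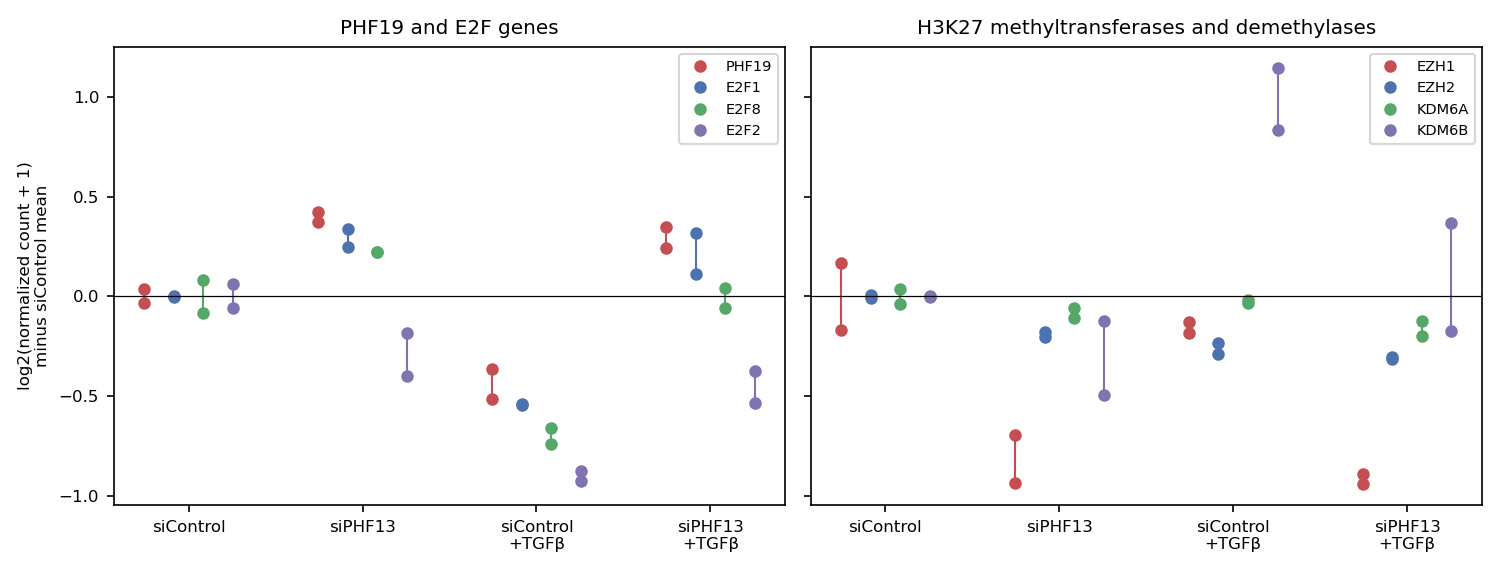
Difference of log2(normalized count + 1) from the siControl mean (y axis) for PHF19 with 3 E2F genes, and for the H3K27 methyltransferases with the H3K27 demethylases, in the 4 groups. Points are single libraries and each line joins the 2 libraries of a group. PHF19, E2F1, E2F8 and E2F2 lie below 0 in siControl + TGFβ, and KDM6B stands highest there.

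The demethylases that remove the mark written by PRC2 were measured in the same libraries. KDM6B had 1039 and 1045 normalized counts in siControl, 739 and 958 in siPHF13, 2304 and 1854 in siControl + TGFβ, and 1345 and 923 in siPHF13 + TGFβ. It was called higher under TGFβ in siControl cells, at a log2 fold change of 0.99 ± 0.16 (adjusted p = 0.000791), and called lower on depletion in the presence of TGFβ, at -0.89 ± 0.16 (adjusted p = 0.000416). In siPHF13 cells TGFβ gave KDM6B a log2 difference of 0.40, and its interaction was -0.58. Neither passed the adjusted p, so the TGFβ responses of KDM6B are not shown to differ. KDM6A, the X-linked demethylase, ranged from 2029 to 2388 over all libraries and passed in no comparison. EZH2, in contrast to KDM6B, did not exceed its siControl mean in any other group.

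Of the 5 further PRC2 partners listed, 4 were in the table. On depletion limma called 0 of them without or with TGFβ, beside 18.4% and 20.5% of all genes. By adjusted p alone 1 rose and 1 fell without TGFβ, beside 23.1% and 24.3% of all genes. With TGFβ 2 rose and 1 fell, beside 24.5% and 25.9%. These were named after their values were seen. LCOR, whose locus encodes a PRC2 partner as well as a nuclear receptor corepressor, rose by 0.43 and 0.45 (log2, adjusted p 0.000172 and 0.000103). Its relative LCORL fell by 0.42 and 0.44 (0.00452 and 0.00318). The histone chaperone RBBP4, which can take the place of RBBP7 in the complex, rose by 0.22 with TGFβ (0.0108) and did not pass without it. RBBP7 was lower by 0.27 without TGFβ and did not pass with it (-0.11, adjusted p = 0.188).

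In Polycomb repressive complex 1, which places ubiquitin on histone H2A, 14 of 14 canonical genes were present and 1 was called on depletion, without or with TGFβ, beside 18.4% and 20.5% of all genes. SCML2, a protein with MBT domains that associates with the complex, had 1321 and 1288 normalized counts in siControl and 508 and 454 in siPHF13, and it fell by 1.44 (log2, SE 0.11, adjusted p = 1.66e-07). With TGFβ it fell by 1.21 (SE 0.11, adjusted p = 7.25e-07), from 944 and 1033 to 448 and 408. The medians of the canonical list were -0.02 and 0.03.

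Of the 15 genes of variant PRC1, 3 were called on depletion without TGFβ and 4 with it, near the 18.4% and 20.5% of all genes called in these comparisons. PCGF5, the RING-type partner that defines the PRC1.5 form, had 1521 and 1647 normalized counts in siControl and 728 and 754 in siPHF13, a log2 fold change of -1.09 ± 0.09 (adjusted p = 4.88e-07), and -1.16 ± 0.09 with TGFβ (adjusted p = 2.45e-07). BCOR, the corepressor of the PRC1.1 form, was called lower at -0.75 ± 0.10 and -0.78 ± 0.10 (adjusted p 2.68e-05 and 1.7e-05). KDM2B, the CpG-binding subunit of the same form, was called higher at 0.71 ± 0.10 (adjusted p = 5.35e-05) without TGFβ and rose by 0.51 ± 0.10 (adjusted p = 0.000771) with it. In the presence of TGFβ PCGF3 (-0.64 ± 0.07, adjusted p = 8.88e-06) and AUTS2 (-0.84 ± 0.33, adjusted p = 0.0457) were called lower too, the latter at 30.2 to 58.6 normalized counts per library. AUTS2 was no longer called by edgeR (adjusted p = 0.0588) or DESeq2 (0.0858), nor without any 1 library of siControl (replicates 1 and 2, 0.0664 and 0.0653), siControl + TGFβ (0.115 and 0.130) or siPHF13 + TGFβ (0.140 and 0.0858). PCGF3 without siPHF13 + TGFβ replicate 2 stood at -0.576, just short of the fold threshold. RYBP, a bridging subunit, was the only gene of this list called under TGFβ in siControl cells, at 0.70 ± 0.09 (adjusted p = 0.00015), with means of 1777 and 2883. Over all genes 3.27% were called higher in this comparison.

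**Figure D5:**
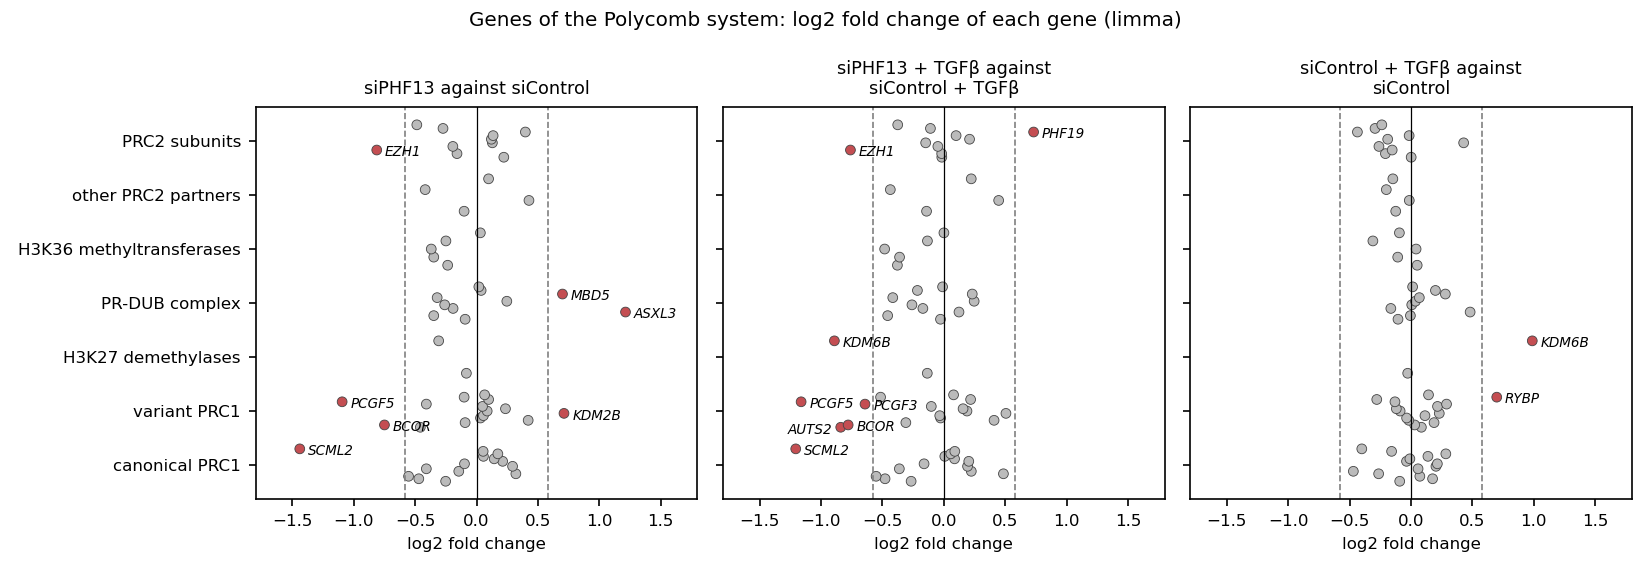
Log2 fold change (x axis) of every listed gene of the Polycomb system in the table, by list (y axis), in the depletion comparisons without and with TGFβ and in the TGFβ comparison of siControl cells. Each point is 1 gene, red points with names are past both thresholds and dashed lines stand at the fold threshold of 0.58. SCML2, PCGF5, BCOR and EZH1 lie beyond the lower line in both depletion comparisons.

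The PR-DUB complex removes the ubiquitin that PRC1 places. Of its 10 genes 2 were called higher on depletion without TGFβ, beside 7.95% of all genes, MBD5 (0.70 ± 0.11, adjusted p = 0.000178) and ASXL3 (1.21 ± 0.44, adjusted p = 0.035), the latter at 16.1 to 49.7 normalized counts per library. ASXL3 did not pass without siControl replicate 1 or 2 (adjusted p 0.132 and 0.0924) or without siPHF13 replicate 1 (0.207). By adjusted p alone 3 were higher and 4 lower without TGFβ, beside 23.1% and 24.3% of all genes. With TGFβ 1 was higher and 3 lower, beside 24.5% and 25.9%, and limma called 0, beside 20.5% of all genes. The H3K36 methyltransferases write a mark that opposes PRC2 on the same nucleosome and that PHF19 binds. Of 5 such genes 4 fell on depletion without TGFβ by adjusted p, beside 24.3% of all genes, and 0 were called, beside 18.4%. These were named after their values were seen: SETD2 (-0.37), NSD1 (-0.35), NSD2, listed as WHSC1 (-0.25), and ASH1L (-0.23), with adjusted p from 0.00203 to 0.0344. With TGFβ SETD2, NSD1 and ASH1L fell, by 0.48, 0.36 and 0.38 on the log2 scale, beside 25.9% of all genes. The median of the H3K36 list was -0.25 without and -0.36 with TGFβ.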

How the data were processed

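RNA of Panc-1 cells was sequenced with paired-end reads. Per the labels and the submitters' processing notes, reads were trimmed with Trim Galore 0.4.1, mapped with STAR 2.7.0 to hg19 and counted on exons with HTSeq 0.12.4. The deposited values are a signal, gene counts divided by the DESeq2 size factor of the library, for 13307 genes. All values were whole multiples of the worth of 1 read (within 1e-06 of a whole number), which gave the depth. Columns were matched to samples by their headers, and the siControl pair, headed NT, was matched as the only untreated control. In siPHF13 replicate 1 that worth was 0.995, within 1% of 1, and count models were run on the other groups without the siPHF13 group. Tables of the authors' own comparisons (log2 fold changes, p-values and adjusted p-values) were not used.

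limma 3.58.1 (R 4.3.3, trended prior) was fitted to log2(normalized count + 1) over all 8 libraries, with group means and no replicate block, two-sided, and p-values were adjusted over all genes. Thresholds follow the study's methods. Alternatives were a pseudocount of 5, a minimum of 10 in 2 or more libraries (which removed no gene and so changed nothing), TMM factors (edgeR 4.0.16), only the libraries compared, a replicate block, edgeR and DESeq2 1.42.0 on recovered reads, a GC and length correction, no fold threshold, and each library left out. The procedure was tested on simulated data.

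Gene models came from GENCODE v44lift37 (GRCh37), which matched 12317 genes by symbol, and promoters from RefSeq. Text names all subunits, list and marker genes past both thresholds in a comparison of conditions, and the 3 genes most like each called subunit, and exceptions are marked. The members and lists (other PRC2 partners, canonical and variant PRC1, H3K27 demethylases, PR-DUB, H3K36 methyltransferases, E2F and RB family, proliferation, and markers of ductal, acinar and islet, and blood and endothelial cells) were chosen with earlier results of these data known.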

Additional observations from a re-analysis of the deposited data

How the results depend on the processing

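For the counts of called subunits, 76 of 78 values under the alternatives stayed within 1.5 times those reported, 5 of them from a minimum of 10 normalized counts that removed no gene. The reported counts were only 0, 1 or 2, and a 0 was taken as kept where the alternative also gave 0. Such small counts say little about how stable the results are. Without a fold threshold the counts were 6 for siPHF13 against siControl and 5 for siControl + TGFβ against siControl. The single subunits gave 780 values under the alternatives, of which 22 had the opposite sign. All 22 were of subunits with an adjusted p over 0.05. With the GC and length correction these were EZH2 (0.071), EED (0.0079), PHF1 (-0.029) and AEBP2 (0.157) on depletion with TGFβ, and AEBP2 (-0.0097) under TGFβ in siControl cells, where edgeR gave -0.0031. Leaving out single libraries gave ranges that crossed 0 under TGFβ in siControl cells for EZH1 (-0.321 to 0.014), PHF1 (-0.086 to 0.056) and AEBP2 (-0.036 to 0.038). The same held on depletion with TGFβ for EED (-0.184 to 0.150) and AEBP2 (-0.056 to 0.024), and under TGFβ in siPHF13 cells for EZH1 (-0.223 to 0.021) and EED (-0.233 to 0.101). In the interaction it held for EZH1 (-0.115 to 0.220), EED (-0.025 to 0.309), MTF2 (-0.046 to 0.224) and PHF1 (-0.106 to 0.036). The cause was not tested. Of the other named genes, the correction took PCGF3 (-0.54) and CCNE1 (0.576) on depletion with TGFβ, and CCNB1 (-0.57) under TGFβ, below the fold threshold, and AUTS2 to an adjusted p of 0.0837. A library left out leaves a group with 1 library, which is assumed to vary like the others.

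The replicate numbers did not pair the samples, with correlations of replicate differences between -0.09 and 0.05. With a replicate block the counts of called subunits were 1 on depletion without TGFβ, 2 on depletion with it, and 0 in both TGFβ comparisons and for the interaction, equal to those without the block. AUTS2 was not called with it (adjusted p = 0.0555). With 2 libraries a group, differences as small as those of EED and AEBP2 with TGFβ were not resolved.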
